A study of Mus musculus with 19 samples.

Results

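Of the 747 probes in the authors' deposited table of miRNA array values, 104 were the brightest in the hippocampus of vehicle-treated mice: their mean over the 4 control arrays was 5000 or more on the authors' intensity scale. These members were chosen by their control values, so their high control level is the choice itself and is given here as a description. Every member was among the 3421 probes tested on the array, which carries 3432. The other 643 probes of the table served for comparison.

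MicroRNAs are short RNAs that guide Argonaute proteins to partly complementary messenger RNAs, which are then translated less or degraded. A few abundant species make up much of the miRNA of a brain region. Glycogen synthase kinase 3 (GSK3) is a serine/threonine kinase of insulin, Wnt and neurotransmitter signalling. It is inhibited by lithium, a mood stabiliser. Ketamine blocks the NMDA type of glutamate receptor and acts as a fast antidepressant.

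Right hippocampi were taken from adult C57BL/6 males and their small RNA was measured in 5 groups, a design that asks how miRNAs respond when GSK3 is reduced or inhibited and after ketamine. Control mice received vehicle through the nose, 5 µL per nostril, every other day over 3 days (n = 4). On that schedule the siGSK3b group received siRNA against GSK3b at 10 µg (n = 4) and the L803mts group received the GSK3 inhibitor peptide L803mts at 60 µg (n = 4). The labels of replicate 4 give 11 µg and 61 µg in these groups, and the treatment text writes the peptide's name as L808mts. The lithium group ate chow with lithium over 4 weeks (n = 4). Its concentration is 0.2% by the label of each sample but 2% by the treatment text. The ketamine group received 10 mg/kg by the intraperitoneal route, 24 h before collection (n = 3). No route-matched control of the chow or the injection was analysed here. The labels do not say that each array held RNA of a separate mouse, so p-values refer to array-to-array spread, which may be technical. In such whole-tissue RNA, fewer cells of a type and less RNA per cell cannot be told apart.

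Each slide held arrays of 1 group among those analysed, so slide and treatment cannot be told apart, and L803mts replicate 2 lay on a slide of its own that was scanned later. Median foreground intensity per array ran from 115 to 190 over median local backgrounds of 78 to 118. Between 128 and 194 spots per array were saturated. Control replicate 1 stood apart from the other control arrays. Correlations between pairs of control arrays over the 104 members ran from 0.88 to 0.98, while the lowest correlation within a treated group was 0.93. In 9 members (8.65%) control replicate 1 lay far from the other 3, with a gap above Dixon's critical value, 4 times on the low side and 5 times on the high side. It did so in 2.6% of tested probes. No other control array did so in any member (0 of 104), and replicates 2, 3 and 4 did so in 0.643%, 1.11% and 1.61% of tested probes. Counts against control are therefore given with and without that array.

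The probes are known by array codes, which the files and reference tables used here do not pair with miRNA names. No miRNA name, seed or sequence is given for that reason, and the hippocampal identity of the samples could not be checked against marker miRNAs. Codes were plain numbers for 82 members (78.8%) and began with ORB for 22 (21.2%). Plain numbers made up 32.7% of the other probes that the authors tabulated and 21.7% of the tested probes outside their table. Plates 1, 3 and 4 held 80 of the 104 members (76.9%) and 33.6% of tested probes. The 8 blocks of an array held from 7 to 23 members each, which was from 9.28% to 29.1% of the 65 to 133 table probes on a block.

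The members spanned a control mean of 5004.25 to 47062, with a median of 11162.5. The brightest were ORB_1210480 at 47062, probe 2021 at 46176.8, probe 1455 at 42443.2, probe 1143 at 40952.8 and probe 1312 at 37551. Brightness also depends on the probe, so these levels do not rank the miRNAs. At the boundary, probes 1851 and 1416 were inside with control means of 5004.25 and 5104.25. Probes 2237 and 1315 lay just outside at 4878.25 and 4875. Control replicate 1 read 4357 for probe 1851 and 3274 for probe 1315, below the other control arrays in both. In all, 90 members reached 5000 in each of the 4 control arrays and 82 in each of the 19 arrays.

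The members were the brightest set only within the authors' table, though they were bright on the whole array too. On the scanner scale the dimmest member had a control mean of 5240.5 and 147 probes outside the table reached at least that value. Of the 104 brightest probes of the whole array, 19 were members and 85 were outside the table. The sources used here do not give the criterion by which the authors kept their 747 probes.

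These 104 probes carried about the same share of the authors' summed intensity in every group. The share was 76.1 ± 0.301% in control (SD, n = 4), 75.5 ± 0.394% in siGSK3b (SD, n = 4), 75.8 ± 0.498% in L803mts (SD, n = 4), 75.8 ± 0.483% in lithium (SD, n = 4) and 76.0 ± 0.616% in ketamine (SD, n = 3). Single arrays ran from 75.1% in siGSK3b replicate 2 to 76.68% in ketamine replicate 2, and the ranges of all 5 groups overlapped. Over all tested probes of the scanner files the same members held between 15.82% of the summed intensity, in L803mts replicate 2, and 21.45%, in control replicate 1.

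All further values are on the normalized log2 scale of the scanner intensities, where a difference of 1 is a doubling. The SD within groups had a median of 0.15 over the members and ran from 0.07 to 0.69. Its median was 0.14 over the other probes of the table and 0.11 over tested probes outside it. The steadiest members were probes 2607, 3277 and 3280, with SDs of 0.07, 0.09 and 0.09. Only 8 members exceeded an SD of 0.3, and probes 2990, 1094 and 1489 had the largest, at 0.69, 0.63 and 0.54.

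Probes 2990, 1094 and 1489 moved together from array to array, and not with the treatment alone. Probe 1094 read 13.71, 12.38, 12.30 and 12.32 in control replicates 1 to 4. It read 13.62, 14.16, 13.94 and 14.76 in siGSK3b, and 13.43, 13.54, 14.06 and 12.11 in L803mts. Lithium arrays gave 12.18, 12.86, 12.14 and 12.71, and ketamine arrays 13.31, 14.08 and 12.73. High arrays were thus control replicate 1, all siGSK3b arrays, L803mts replicates 1 to 3 and ketamine replicates 1 and 2, while the other control arrays, L803mts replicate 4, ketamine replicate 3 and all lithium arrays were low.

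Probe 2990 split the arrays the same way. Its control values were 14.88, 13.12, 13.09 and 13.14, and its L803mts values 14.40, 15.14, 14.67 and 12.98. Values ran from 14.43 to 15.27 in siGSK3b and from 12.87 to 13.69 in lithium, and ketamine gave 14.84, 14.78 and 13.62. Arrays of the same slide therefore fell on both sides in control, L803mts and ketamine.

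Probe 1489 had all 3 spots saturated on control replicate 1, on all 4 siGSK3b arrays, on L803mts replicates 1 and 3 and on ketamine replicates 1 and 2. It read 16.00 or just below on these arrays and 15.98 on L803mts replicate 2. On the remaining arrays it read from 14.28 to 14.99. Over the 19 arrays the correlation was 0.90 between probes 1489 and 1094, 0.95 between 1489 and 2990 and 0.94 between 1094 and 2990. With group means removed the 3 values were 0.82, 0.90 and 0.90. No other member (0 of 101) correlated at 0.8 or more with all 3, but 14 of the 643 other table probes and 8 of 2674 tested probes outside the table did. These correlations describe arrays that share slides and labelling, and the contribution of labelling or RNA quality was not tested.

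Across the members the treatments left most levels close to control. The median difference from control was -0.07 in siGSK3b, -0.03 in L803mts, -0.02 in lithium and -0.04 in ketamine, against 0.00 in siGSK3b and 0.01 in the other 3 over all 3421 tested probes. Differences were below 0 for 64, 56, 57 and 59 of the 104 members in that order. Since the members were chosen for high control values, a shift below control is partly built into the choice. Of 98 probes chosen instead by a mean of 5000 or more over the 15 treated arrays, 94 were members and the median differences ran from -0.03 to 0.03, but that choice favours shifts the other way, so neither set gives an unbiased median. The scaling also mattered. With median scaling in place of quantile normalization the members' medians were -0.21 in siGSK3b, -0.13 in L803mts, -0.08 in lithium and -0.27 in ketamine, and in the authors' table they were -0.14, -0.08, -0.07 and -0.09.

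With quantile normalization, precision was sufficient to bound most members. The intervals do not cover the choice of scaling, and median scaling moved the members' median in ketamine from -0.04 to -0.27. The 95% interval of the difference from control lay within 0.5 log2 units of 0 for 83 members in siGSK3b, 80 in L803mts, 83 in lithium and 83 in ketamine. The median distance from estimate to bound was 0.21 for the first 3 treatments and 0.23 for ketamine. The 4 comparisons use the same control arrays, so their values are given side by side and not as independent support for each other.

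After siRNA against GSK3b no member passed the threshold of an adjusted p of 0.05 in limma (0 of 104), where 0.117% of tested probes did. At an unadjusted p under 0.05 the count was 31 members (29.8%) in limma, against 11.5% of tested probes and 14.5% of other table probes. The 4 siGSK3b arrays lay wholly above the control arrays in 4 members (2.48% of tested probes) and wholly below in 5 (3.71%). The largest differences belonged to the probes that already varied most. Probe 1094 differed by 1.44 (SE 0.41, adjusted p = 0.165) and probe 2990 by 1.30 (SE 0.45, adjusted p = 0.241). For probe 1489, saturated on every siGSK3b array, the measured difference was 1.15 (SE 0.35, adjusted p = 0.201), a measured ratio of 2.22 that did not pass. Control replicate 1 was saturated too, so values were clipped in both groups and this ratio is not a bound.

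The siGSK3b count moved most with control replicate 1, and also with the normalization and the groups fitted, as given at the end. Without control replicate 1 the count was 7 members, 5 higher and 2 lower, where 0.965% of tested probes passed. The higher ones were probe 1094 at 1.79 (adjusted p = 0.0454), 1489 at 1.54 (adjusted p = 0.0235), 2005 at 0.61 (adjusted p = 0.0198), 2233 at 0.37 (adjusted p = 0.0235) and 1485 at 0.34 (adjusted p = 0.0235). The lower ones were probe 3197 at -0.42 (adjusted p = 0.0454) and 3280 at -0.35 (adjusted p = 0.0235). These probes were named after their values were seen, all p-values are from limma, and the weight given here to control replicate 1 came after its values were known.

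After the inhibitor peptide L803mts 3 members differed from control, where 2.48% of tested probes passed. The upward count was 1 member (0.614% of tested probes) and the downward count 2 (1.87%). ORB_0510279 read 12.82, 13.09, 12.76 and 12.89 in control and 12.24, 12.21, 12.46 and 12.31 in L803mts. It fell by 0.59 log2 units (SE 0.11, adjusted p = 0.00907 in limma), to 66.6% of control, and the groups did not overlap. ORB_0511565 read 14.17, 14.26, 14.06 and 14.16 in control and between 13.55 and 13.62 on the 4 L803mts arrays. It fell by 0.56 (SE 0.11, adjusted p = 0.0101 in limma), to 67.8% of control, again without overlap.

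Probe 2233 was the member that rose. It read 12.48, 12.25, 12.27 and 12.30 in control and 12.70, 12.75, 12.58 and 12.76 in L803mts, a rise of 0.37 (SE 0.07, adjusted p = 0.00887 in limma). Every L803mts array lay above every control array. This rise was not called with median scaling (0.22, adjusted p = 0.570), in the authors' table (0.28, adjusted p = 0.115) or when control and L803mts were fitted alone (0.37, adjusted p = 0.0601). Both falls passed in each of the 20 alternatives run. The L803mts arrays lay wholly above control in 2 members (3.01% of tested probes) and wholly below in 4 (4.44%). Without control replicate 1 the count was 9, where 2.75% of tested probes passed, and without L803mts replicate 1 it was 5, where 2.86% passed. At an unadjusted p under 0.05 the count was 29 members (27.9%) in limma, against 15.4% of tested probes and 16.3% of other table probes.

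The 2 members that fell with L803mts read alike across arrays. Their correlation over 19 arrays was 0.87. In siGSK3b ORB_0510279 differed from control by -0.41 (SE 0.11, adjusted p = 0.155) and ORB_0511565 by -0.46 (SE 0.11, adjusted p = 0.133), with no array overlapping control in either. In lithium the differences were -0.41 (adjusted p = 0.0693) and -0.29 (adjusted p = 0.231). In ketamine they were 0.08 (adjusted p = 0.844) and 0.02 (adjusted p = 0.984). All are from limma, and none of these 6 differences passed. ORB_0510279 read between 12.37 and 12.60 in siGSK3b and between 12.27 and 12.79 in lithium. ORB_0511565 read between 13.57 and 13.92 in siGSK3b and between 13.69 and 14.17 in lithium, where replicate 4 was high for both probes. The next most similar members were ORB_0511539 for ORB_0510279 (correlation 0.64) and ORB_0511072 for ORB_0511565 (0.66).

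With lithium in the chow 2 members differed from control, where 2.34% of tested probes passed. The upward count was 1 member (1.02% of tested probes) and the downward count also 1 (1.32%). Probe 3252 read 13.57, 13.95, 14.02 and 13.99 in control and 13.23, 13.31, 13.44 and 13.31 in lithium. It fell by 0.56 (SE 0.09, adjusted p = 0.00404 in limma), to 67.9% of control, and the lowest control array was replicate 1. The fall did not pass with foreground means in place of medians (-0.38, adjusted p = 0.0622). Probe 2233 read 12.76, 12.67, 12.75 and 12.59 in lithium, all above the highest control value of 12.48, and rose by 0.37 (SE 0.07, adjusted p = 0.00955 in limma). It did not pass with median scaling (0.29, adjusted p = 0.501) or in the authors' table (0.31, adjusted p = 0.101).

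The next largest lithium differences were 0.45 for probe 2197 (SE 0.18, adjusted p = 0.267) and 0.43 for probe 3278 (SE 0.15, adjusted p = 0.193), neither of which passed in limma. Lithium arrays lay wholly above control in 11 members (4.56% of tested probes) and wholly below in 2 (4.12%). Without control replicate 1 the number of members past the threshold was 6, where 1.99% of tested probes passed. At an unadjusted p under 0.05 it was 25 members (24%) in limma, against 13.7% of tested probes and 15.9% of other table probes.

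After ketamine 5 members differed from control, where 3.39% of tested probes passed. The upward count was 1 member (1.34% of tested probes) and the downward count 4 (2.05%). Probe 3252 read 13.28, 13.30 and 13.33, below all control arrays, and fell by 0.58 (SE 0.10, adjusted p = 0.00229 in limma), to 66.8% of control. With foreground means it did not pass (-0.39, adjusted p = 0.0682). ORB1295 read 12.34, 12.43, 12.43 and 12.26 in control and 11.71, 11.82 and 11.85 in ketamine. It fell by 0.57 (SE 0.10, adjusted p = 0.00372 in limma), to 67.6% of control, and passed in each of the 19 alternatives run.

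Probe 3280, one of the steadiest members, read 13.31, 13.38, 13.57 and 13.55 in control and 12.99, 13.11 and 13.23 in ketamine. It fell by 0.34 (SE 0.07, adjusted p = 0.00983 in limma). Probe 1143 read 15.18, 15.47, 15.35 and 15.25 in control and 14.76, 14.84 and 14.91 in ketamine, a fall of 0.48 (SE 0.12, adjusted p = 0.0456 in limma). For both, every ketamine array lay below every control array. Probe 2233 read 12.52, 12.56 and 12.79 in ketamine, above all control values, and rose by 0.30 (SE 0.08, adjusted p = 0.0408 in limma).

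Single arrays decided some of the ketamine calls. The call of probe 1143 was lost without control replicate 2, 3 or 4 or any 1 ketamine array, at adjusted p = 0.0733 to 0.147, and under 6 other settings. That of probe 2233 was lost without control replicate 2, 3 or 4 or ketamine replicate 2 or 3, at adjusted p = 0.0742 to 0.192, and under 10 other settings, among them median scaling (0.05, adjusted p = 0.954). That of probe 3280 was lost without ketamine replicate 1 (adjusted p = 0.0747) and when control and ketamine were fitted alone (adjusted p = 0.119). The count of 5 was 10 without control replicate 1, where 3.48% of tested probes passed, and 3 without control replicate 2 (2.13%), control replicate 3 (2.81%) or ketamine replicate 1 (2.02%), 2 (2.1%) or 3 (2.37%). At an unadjusted p under 0.05 it was 25 members (24%) in limma, against 14.1% of tested probes and 19.1% of other table probes. Ketamine arrays lay wholly above control in 4 members (6.99% of tested probes) and wholly below in 6 (6.61%).

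Members with similar profiles to the called ones were as follows. ORB1295 correlated with probe 1143 at 0.87 and with 3280 at 0.79 over the 19 arrays, and 1143 with 3280 at 0.79. Probe 3280 correlated with 2607 at 0.81, probe 3252 with 3197 at 0.71 and with 3160 at 0.63, and probe 2233 with 1015 at 0.74 and with 2077 at 0.72. In siGSK3b the members ORB1295, 1143 and 3280, which fell with ketamine, differed from control by -0.37 (adjusted p = 0.133), -0.40 (adjusted p = 0.167) and -0.30 (adjusted p = 0.103), none past the threshold in limma. ORB1295 read 12.11, 12.02, 11.90 and 11.94 on the siGSK3b arrays, below all control arrays, and 12.47, 11.93, 11.96 and 12.18 in L803mts, where replicate 1 lay above the control arrays. Probe 1143 read 15.25, 14.96, 14.76 and 14.67 in siGSK3b and between 14.72 and 15.18 in L803mts, so that siGSK3b overlapped control and L803mts reached its lowest value. Probe 3280 read between 13.05 and 13.28 in siGSK3b, below control, and between 13.26 and 13.33 in L803mts, which overlapped it.

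Over the 4 treatments 7 members passed against control at least once, where 5.06% of tested probes did. Of these 1 passed only upward (2.13% of tested probes) and 6 only downward (2.92%). The choice by high control values favours the downward direction, but its part in these 6 falls was not tested. Control means of the 6 on the authors' scale were 40952.8 for probe 1143, 18744.8 for ORB_0511565 and 15461.5 for probe 3252. They were 11676.5 for probe 3280, 7997 for ORB_0510279 and 5385.25 for ORB1295, where the choice required 5000 or more. Probe 2233 was the upward one, and it also lay above control on every siGSK3b array, at 12.61, 12.66, 12.55 and 12.76 (difference 0.32, SE 0.07, adjusted p = 0.103 in limma). Its treated arrays ran from 12.52 to 12.79 and its control arrays from 12.25 to 12.48. Since all 4 differences were taken from the same control arrays, this pattern rests on 1 set of control measurements. Probe 3252 read 13.78, 13.50, 13.53 and 13.82 in siGSK3b and 13.71, 13.82, 13.62 and 13.67 in L803mts, between the lithium and ketamine arrays and the highest 3 control arrays.

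Comparisons between treated groups leave the control arrays out of the means compared, but those arrays, which chose the members, still enter the shared estimate of spread. Fitted with only the arrays compared, no member passed in ketamine against lithium or against L803mts (0 in each, with 0.0292% and 0% of tested probes), and 2 passed the F test (0.38%). With all arrays in the fit, an F test for any difference among the 4 treated groups passed in no member (0 of 104) in limma, where 0.263% of tested probes passed. At an unadjusted p under 0.05 the count was 20 members (19.2%), against 15% of tested probes and 19% of other table probes. The lowest adjusted p was 0.0661, for ORB_0510279, 3280 and 3252 alike. The count was 3 without L803mts replicate 2, where 2.28% of tested probes passed, 3 without lithium replicate 4 (0.818%), 3 without ketamine replicate 3 (0.906%) and 1 without L803mts replicate 1 (0.497%).

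L803mts and siGSK3b both target GSK3, one as an inhibitor peptide and one as an siRNA. No member differed between them in limma (0 of 104), as was so for all tested probes (0%). An unadjusted p under 0.05 in limma was found for 8 members (7.69%), against 8.68% of tested probes and 10.1% of other table probes. The lowest adjusted p-values were 0.415 for probe 2909, at 0.30 higher in L803mts (95% interval 0.14 to 0.47), 0.415 for ORB_0608063 at 0.37 (0.14 to 0.59) and 0.420 for probe 2977 at 0.34 (0.10 to 0.58). L803mts arrays lay wholly above siGSK3b arrays in 5 members (2.1% of tested probes) and wholly below in none (0, with 1.87% of tested probes). The 95% interval lay within 0.5 of 0 for 88 of the 104 members, so larger differences are bounded for those members but not for the rest.

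Ketamine and lithium differed in 3 members, where 0.585% of tested probes passed. All 3 were lower in ketamine (0.497% of tested probes) and none higher (0, with 0.0877% of tested probes). An unadjusted p under 0.05 in limma was found for 16 members (15.4%), against 9.91% of tested probes and 13.8% of other table probes. ORB_1210480, the brightest member, read 15.65, 15.59, 16.00 and 15.38 in lithium and 15.10, 14.99 and 15.08 in ketamine. It was 0.60 lower in ketamine (-0.60, SE 0.12, adjusted p = 0.0468 in limma), and its spots were saturated on lithium replicate 3. Probe 3280 read 13.44, 13.50, 13.48 and 13.41 in lithium, and ketamine minus lithium was -0.35 (SE 0.07, adjusted p = 0.0462 in limma). ORB1295 read 12.38, 12.37, 12.15 and 12.24 in lithium, and the difference was -0.49 (SE 0.10, adjusted p = 0.0468 in limma).

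The arrays of these groups did not overlap in any of the 3 probes. Ketamine arrays lay wholly below lithium arrays in 11 members (6.78% of tested probes) and wholly above in 4 (4.24%). The 3 calls were close to the threshold. Against control, ORB_1210480 differed by 0.17 in lithium (adjusted p = 0.591) and by -0.43 in ketamine (adjusted p = 0.0746), and its control values were 15.27, 15.65, 15.53 and 15.47. All were lost without lithium replicate 1, 2 or 3 or ketamine replicate 1 or 2, at adjusted p = 0.0731 to 0.197. ORB_1210480 and ORB1295 were also lost without ketamine replicate 3 (adjusted p = 0.0823 for both), and ORB1295 without lithium replicate 4 (adjusted p = 0.0515). Of the settings that kept all arrays, 9 lost probe 3280, 7 lost ORB_1210480 and 8 lost ORB1295. Probe 3252, which fell against control in both groups, differed between them by -0.02 (SE 0.10, 95% interval -0.24 to 0.19, adjusted p = 0.979 in limma).

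Ketamine and L803mts differed in 2 members, where 1.29% of tested probes passed. Both were higher in ketamine (0.994% of tested probes). ORB_0510279 read 13.07, 13.16 and 12.69 in ketamine, above every L803mts array, a difference of 0.67 (SE 0.12, adjusted p = 0.0288 in limma) or 1.59-fold. ORB_0511565 read 14.48, 14.16 and 13.90 in ketamine, also above every L803mts array, a difference of 0.58 (SE 0.12, adjusted p = 0.0393 in limma) or 1.49-fold. ORB_0511539 came next at 0.50 (SE 0.12, adjusted p = 0.0552 in limma) and did not pass. At an unadjusted p under 0.05 the count was 16 members (15.4%) in limma, against 13.7% of tested probes and 18% of other table probes. Ketamine arrays lay wholly above L803mts arrays in 5 members (5.88% of tested probes) and wholly below in 7 (4.82%). Neither call held without L803mts replicate 1 or 4 or ketamine replicate 1 or 2, at adjusted p = 0.0629 to 0.151, and that of ORB_0511565 was also lost without L803mts replicate 3 (adjusted p = 0.0509). Median scaling lost both (adjusted p = 0.228 and 0.212), as did a fit of these groups alone (0.156 and 0.174), and plain background subtraction lost ORB_0511565 (0.0667).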

How the data were processed

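GenePix Pro 4.1.1.4 read miRNA arrays in 1 channel (532 nm) and gave linear intensities, per the file headers. Per the labels' protocols, low-molecular-weight RNA was labelled with Oyster-550. The authors' deposited table gives linear intensities of 747 probes, in which 4778 cells with a decimal point were multiplied by 1000. Over the members its values then correlated at 0.99984 or more with each array's scanner values. The sources used here do not give the authors' normalization or say whether a centring step entered.

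Each deposited file covers a slide of 4 arrays, and the 8 blocks that the labels give were used. Background was corrected by normexp with an offset of 50 (limma 3.58.1 under R 4.3.3, with version 1.17.8 of data.table) on foreground and local background medians. Bad spots and 40 control spots per array were left out, the 3 spots of a probe were averaged on the log2 scale and arrays were quantile normalized. Probes above background by 2 scaled median absolute deviations of the local background on at least 3 arrays were tested (3421). One limma fit of all 19 arrays gave two-sided p-values, adjusted by Benjamini-Hochberg over all tested probes in each comparison. Each alternative was adjusted over the probes in its own fit, which were the 747 for the authors' table. All adjusted p-values are from limma. The number of arrays limits the precision. The steps were tested on simulated data.

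The members and lists were chosen with earlier results of these data known. Named were the members with the 5 largest increases and 5 largest decreases that passed in each comparison with control (where under 3 passed, also the 3 of largest difference), the 3 lowest p-values elsewhere, the 5 brightest, the 2 probes on each side of the boundary, the 3 most and 3 least variable, up to 2 similar members per called one, and any saturated throughout a group. Members past the threshold without control replicate 1 in siGSK3b were named after their values were seen. Samples of the same replicate number showed correlations of their deviations from -0.41 to 0.35. Between samples of different number in different groups they ran from -0.48 to 0.50. The alternatives changed normalization, background, foreground summary, source of values, filters, moderation, arrays fitted, blocks and the choice of members. Arrays of no sample in the labels were not used here.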

Additional observations from a re-analysis of the deposited data

Results flagged for a closer look

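Among 108 checks of named members and of summary values of the arrays, in groups of 4 arrays, 7 had 1 array far from the rest. All 7 were in named members. A rate of 1 in 20 groups would give 5.4, but it does not hold for this list. Some members were named for their large spread and some vary together, so the checks are neither blind nor independent. Of the 7, 5 were control replicate 1. It read 13.71 for probe 1094 against 12.30 to 12.38 in the other control arrays, and 14.88 for probe 2990 against 13.09 to 13.14. It was low for probe 3252 (13.57 against 13.95 to 14.02), probe 2021 (14.76 against 15.59 to 15.67) and probe 1312 (14.67 against 15.27 to 15.35). L803mts replicate 4 read 14.58 for probe 1489 against 15.98 to 16.00, and L803mts replicate 1 read 11.79 for probe 1416 against 12.14 to 12.16. Probe 1489 was saturated on 2 of the other L803mts arrays.

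Treated groups differed in 5 tests of the difference itself by limma. Ketamine minus lithium was -0.60 for ORB_1210480 (adjusted p = 0.0468), -0.35 for probe 3280 (adjusted p = 0.0462) and -0.49 for ORB1295 (adjusted p = 0.0468). Ketamine minus L803mts was 0.67 for ORB_0510279 (adjusted p = 0.0288) and 0.58 for ORB_0511565 (adjusted p = 0.0393). Each group pair lay on different slides.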

How the results depend on the processing

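None (0) of the 27 named member results, 3 of them F tests with no sign, changed direction under the alternatives run. The number of members past the threshold did move. For settings that changed the processing or the model, the share of tested probes passing is not given here. Those counts cannot tell a change in the members from one over the whole array. With median scaling it was 1 in lithium, 0 in ketamine against lithium and 0 in ketamine against L803mts, and with cyclic loess 2 in siGSK3b and 2 in the F test. Plain subtraction gave 3 in ketamine, 0 against lithium and 1 against L803mts, and foreground means gave 5 in lithium, 5 higher and 0 lower, where 1 rose and 1 fell before. The authors' table gave 1 for ketamine against lithium and 3 for the F test, leaving out saturated spots gave 3 for ketamine, and trend and robust moderation gave 5 for the F test. Without saturated spots probe 1489 has no siGSK3b value. Fits of only the compared groups gave 1 in siGSK3b (0.585% of tested probes) and 0 in ketamine against lithium (0.0292%). They gave 0 in ketamine against L803mts (0%) and 2 in the F test (0.38%). With a control mean of 2500 or more, 169 probes qualified. The counts were 5 in L803mts (2.48% of tested probes), 4 in lithium (2.34%) and 9 in ketamine (3.39%). Ketamine gave 6 against lithium (0.585%) and 6 against L803mts (1.29%), and the F test gave 1 (0.263%). With 10000 or more (59 probes) the counts were 1, 1 and 3 in the same 3 treatments and 1 for ketamine against L803mts. Both lists used the main fit, so these shares hold for both. The lists differ in length, so their counts are not compared. Leaving out the 3 most variable members, chosen after seeing the data, could move no count, because none of these 3 had passed in any comparison.

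The replicate block gave 3 members in ketamine and 0 in ketamine against lithium. Samples of the same number did not deviate together more often than others. Of their pairs 10 of 36 correlated above 0.1, against 31 of 108 pairs of different number. Apart from L803mts replicate 2, samples of the same number also lay at the same position on their slides. Array position as a fixed term and slide as a random block (consensus correlation 0.02) each gave the same 3 and 0. The fits by replicate and by position are nearly the same, so they are not separate support. Leaving out 1 array at a time gave 0 to 7 members for siGSK3b, 3 to 9 for L803mts, 2 to 6 for lithium, 3 to 10 for ketamine, 0 in L803mts against siGSK3b, 0 to 3 in ketamine against lithium, 0 to 2 in ketamine against L803mts and 0 to 3 in the F test. The shares of tested probes passing were 0% to 0.965%, 1.49% to 2.86%, 1.29% to 1.99% and 2.02% to 3.48% for the 4 treatments. In the other comparisons they were 0%, 0% to 0.818%, 0% to 1.84% and 0.0292% to 2.28%, in the same order. The cause was not tested. A saturated spot occurred in 4 members. Saturation clipped probe 1489 in both treated and control arrays. Probe 3111 had a saturated spot on siGSK3b replicate 4, L803mts replicate 3, lithium replicate 3 and ketamine replicate 2, but on no control array. ORB_1210480 had one on control replicate 2 and lithium replicate 3, and probe 3214 on lithium replicate 3. The number of arrays limits what can be detected.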
